A study of Mus musculus with 2 samples.

Results

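Sense 24–33-nt small RNAs of protein-coding genes were taken from the small RNA libraries of WT and Hsp90α KO fetal testes. An RNA was kept when it was read in either library, was neither miRNA nor a structural RNA fragment, and matched without mismatch, on the sense strand, transcripts of exactly 1 protein-coding gene of GENCODE M21 (GRCm38). The genes D10Wsu102e and Noct, which are rich piRNA sources of their own, were left out. The rule kept 64069 of the 1132769 distinct sequences in the files, from 11365 of 22028 protein-coding genes. Of these, 40392 were read in WT, 27550 in KO and 3873 in both, and 57010 were read only once in all. They made up 59065 of 6409305 WT reads (0.922%) and 40102 of 5589326 KO reads (0.717%). Both libraries came from C57BL/6 fetuses at embryonic day 16.5 (E16.5). Each was made from the total RNA of 20 whole testes, so that germ cells, Sertoli cells and interstitial cells were pooled. The KO fetuses lacked Hsp90α, and the sources used here do not describe which part of the gene the mutation changes. Each genotype had 1 library, so no difference below has a replicate check. Intervals are 95% intervals and, like the tests, cover the counting of reads only, and PCR reads without molecular identifiers are not independent molecules.

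PIWI-interacting RNAs (piRNAs) guide PIWI proteins to transposons in germ cells. In fetal prospermatogonia, MILI and MIWI2 carry them, and primary piRNAs are cut from long single-stranded precursors, with a preference for uracil at the first position. Besides transposons and piRNA clusters, mRNAs also feed this pathway, most often through their 3′ UTRs. In the ping-pong cycle a PIWI protein cuts a complementary RNA, which places adenine at the 10th position of the secondary piRNA and a 10-nt overlap between the 5′ ends of the pair.

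The most abundant RNA of up to 30 nt is shown for 15 of the named genes, to show what such an RNA looks like in each part of an mRNA and where it departs from the piRNA pattern. A capital U marks uracil at the first position and a capital A marks adenine at the 10th position. The first group lies in 3′ UTRs, the second in coding sequence (CDS), the third in 5′ UTRs, and the last group holds 3 RNAs with no uracil at the first position.
Eif4ebp2: Uggcacacccguggcucugucugcuu
Zbtb37: UgaaacucgAucuguagauuagccuggcc
Klf13: Ucaauugugguucucugcccuuuggccu
Rnf114: Uacugucccgagaagaacuuugaucag
Eef2: Ugagaacgaccugaacuucauuaagcag
Rbm15b: UaaaaguucAgaccgcagaaacagccu
Ppp1r15b: Ugcccgagcgucggaccagguacuggacc
Irs2: Ugagaccauccuagaagcuaugaaggcacu
Rps3: Uaagauuggucccaagaagccucugccu
Hmgn1: Ugacagauccgacgacgcacgcgucuc
Arhgef17: Ugagugcaggaaccgagccuuaggccc
Prelid1: Ugcggagauugagcugcgagccuggc
Lars2: ggggccucacgauccuucugaccu
Tmem38b: gggaauaccgggugcuguaggcuu
Mettl26: gcgccgcugguguagugguaucaugcaaga

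In GRCm38 the 3′ UTR examples lie in Eif4ebp2 (chr10:61433067-61433092, minus strand), Zbtb37 (chr1:161011732-161011760, minus) and Klf13 (chr7:63891028-63891055, minus). The CDS examples lie in Rnf114 (chr2:167511246-167511272, plus), Eef2 (chr10:81178080-81178107, plus), Rbm15b (chr9:106885289-106885315, minus), Ppp1r15b (chr1:133131892-133131920, plus) and Irs2 (chr8:11007559-11007588, minus). The Rps3 RNA (chr7:99479394-99479421, minus) was placed on a transcript without a CDS, and on the longest transcript with a CDS it fell in coding sequence. The 5′ UTR examples lie in Hmgn1 (chr16:96127623-96127649, minus), Arhgef17 (chr7:100932045-100932071, minus) and Prelid1 (chr13:55322079-55322104, plus). The RNAs without a first uracil lie in the 3′ UTRs of Lars2 (chr9:123461898-123461921, plus) and Tmem38b (chr4:53860748-53860771, plus) and in the 5′ UTR of Mettl26 (chr17:25875088-25875117, plus). The Eef2, Rps3 and Tmem38b RNAs also matched another gene when up to 2 mismatches were allowed.

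Fragments of Hsp90aa1, the mRNA of HSP90α, were read 2 times in WT and 10 times in KO. Of these 12 reads, 8 lay in the 3′ UTR and 4 in the CDS, and the KO/WT ratio was 4.93 (1.05 to 46.2). The fragments were thus higher in the library labelled KO, and because the changed part of the gene is not described, they do not check the genotype labels. The mRNA of HSP90β, Hsp90ab1, gave 19 and 20 reads. Counts were divided by miRNA reads, 2523084 in WT and 2561491 in KO. Structural RNA fragments of 24–33 nt, a second yardstick, had a KO/WT ratio of 0.874 (0.864 to 0.883) on that scale, so they too were lower in KO.

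The sense RNAs of protein-coding genes were reduced in the KO testes. Relative to miRNA reads they stood at 0.669 times the WT level (KO/WT ratio, 0.660 to 0.677). The ratio over every 24–33-nt RNA outside the miRNA and structural classes was 0.628. The antisense RNAs of protein-coding genes, D10Wsu102e and Noct included, had a lower ratio, 0.382 (0.368 to 0.396). With all reads in place of miRNA reads as the total, the ratio of the sense RNAs was 0.779, and with structural RNA fragments it was 0.765. Because whole testes were pooled, fewer germ cells and less of these RNAs per cell cannot be told apart.

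A single gene held far more reads than any other. Lars2, which encodes the mitochondrial leucyl-tRNA synthetase, had 12905 WT and 9818 KO reads, or 21.8% and 24.5% of all. The KO/WT ratio of its RNAs was 0.749 (0.730 to 0.769), and uracil was first in 21.7% of them. Within its longest matched transcript, 12697 of 12900 WT reads lay in a stretch of 372 nt of the 3′ UTR (chr9:123461801-123462172). BLAST placed parts of this stretch on the transcripts AA474408 (80.1% identity over 196 nt) and Gm15564 (98.6% over 72 nt). The large ribosomal RNAs are not among the transcripts used here, and a match to them was not tested.

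Tmem38b, the gene of an ion channel of the endoplasmic reticulum, was the next most abundant, with 299 WT and 354 KO reads. Its RNAs came from a stretch of 33 nt in the 3′ UTR, 32 nt of which were identical to 5S ribosomal RNA, and 99.7% of its reads overlapped the annotated 5S copy n-R5s185. Uracil was first in 12.7% of them. In fragments of structural RNAs of 24–33 nt uracil was first in 26.0% of WT reads. Since Lars2 weighs on every sum over 3′ UTRs, the sums that follow were made without it unless stated. For some of them the sum over all members is given as well. Without Lars2 there were 46160 WT and 30284 KO reads, with a ratio of 0.646 (0.637 to 0.656), and leaving out Tmem38b as well gave 0.643.

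The remaining reads were spread over many genes. The 20 most abundant genes held 7.77% of WT reads and 7.04% of KO reads, and the 1000 most abundant held 51.0% and 46.8%. The 9626 genes with 1 to 9 reads, both libraries together, had a summed ratio of 0.711 (0.695 to 0.728). It was 0.633 (0.618 to 0.648) in the 1590 genes with 10 to 49 reads, 0.554 (0.526 to 0.584) in the 93 genes with 50 to 99 reads and 0.570 (0.547 to 0.592) in the 55 genes with 100 reads or more. Uracil was first in 64.7% of the reads in the sparsest genes and in 79.3% in the richest. The genes with few reads thus held more RNAs without the primary piRNA base and were reduced less. The sparse genes were also reduced less among RNAs of either kind alone. From the sparsest to the richest genes the ratio was 0.643, 0.601, 0.541 and 0.548 with uracil first. It was 0.853, 0.745, 0.611 and 0.659 for the others.

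Each RNA was placed by its 5′ end on its longest matched transcript. In WT, 17016 reads fell in 3′ UTRs, 18797 in CDS, 3564 in 5′ UTRs and 6783 on transcripts without a CDS, such as retained introns. In KO the same regions held 9376, 14083, 2634 and 4191 reads. Set against the length of the regions in the same genes, WT reads numbered 1335 per Mb in 5′ UTRs, 995 in CDS and 906 in 3′ UTRs. In KO they numbered 986, 746 and 499 per Mb. The share of 3′ UTRs in the reads placed in these 3 regions fell in KO from 43.2% to 35.9%. With Lars2, 3′ UTRs held 29915 WT and 19194 KO reads, or 57.2% and 53.4%, and at 1593 and 1022 reads per Mb they were the densest region, so the order of the regions rested on this gene.

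Summed over genes, the reduction was larger in 3′ UTRs than in CDS or 5′ UTRs. The KO/WT ratio was 0.543 (0.529 to 0.557) in 3′ UTRs, 0.738 (0.722 to 0.754) in CDS and 0.728 (0.692 to 0.766) in 5′ UTRs. On transcripts without a CDS it was 0.609 (0.585 to 0.633). The 3′ UTR ratio was 0.735 times the CDS ratio (0.711 to 0.760, Fisher's exact test on reads, two-sided, adjusted over 3 pairs of regions, p = 9.21e-73). It was 0.746 times the 5′ UTR ratio (0.705 to 0.789, adjusted p = 4.34e-24, Fisher's exact test). The 5′ UTR and CDS ratios did not differ beyond counting error, with a quotient of 0.986 (0.934 to 1.04, adjusted p = 0.634, Fisher's exact test). With Lars2 the 3′ UTR ratio was 0.632 (0.621 to 0.644) and its quotient over CDS 0.856 (0.832 to 0.881). When RNAs with a match in another gene at up to 2 mismatches were left out too, the quotient without Lars2 was 0.763 (0.737 to 0.791).

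Within genes the difference between 3′ UTR and CDS was smaller, and its interval included 1. In the 3709 genes with RNAs in both regions, summed ratios were 0.543 for 3′ UTRs and 0.709 for CDS. When the 2 regions were compared within each gene and the genes combined by the Mantel-Haenszel method, the quotient was 0.963 (0.915 to 1.01). It was 0.993 (0.932 to 1.06) for RNAs with uracil first and 0.958 (0.856 to 1.07) for the others. Genes whose reads lay mostly in the 3′ UTR also had a low ratio for their CDS RNAs. Among genes with at least 50 reads, the 63 such genes other than Lars2 had a ratio of 0.429 (0.406 to 0.452) in their 3′ UTRs and, in the 59 of them that had any, 0.507 (0.437 to 0.587) for their CDS RNAs. In the 31 of them with 5′ UTR reads, the 117 WT and 86 KO reads there gave 0.724 (0.542 to 0.965), near the ratio of all 5′ UTRs. The 47 genes whose reads lay mostly in the CDS had 0.705 (0.664 to 0.747) in the CDS and, in the 34 with reads there, 0.675 (0.567 to 0.801) in their 3′ UTRs.

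Along the regions the ratio varied little in CDS and more in 3′ UTRs. With each region cut into 5 parts of equal length, the ratio from the 5′ to the 3′ end of the CDS was 0.752, 0.717, 0.733, 0.735 and 0.754. In 3′ UTRs without Lars2 and Tmem38b it was 0.587 (0.555 to 0.620) in the part next to the stop codon, 0.534, 0.499 and 0.483 (0.456 to 0.512) in the following ones, and 0.573 (0.535 to 0.614) in the last. In 5′ UTRs it lay between 0.664 and 0.776. The last part of the 3′ UTR held 13.6% of the region's WT reads, the smallest share of the 5 parts.

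Uracil was the most frequent first base in every part of the mRNA. In WT it was first in 77.9% of 3′ UTR reads (95% Wilson interval 77.2 to 78.5), where uracil made up 28.7% of the same regions weighted by reads. It was first in 72.8% of CDS reads (72.1 to 73.4) against a uracil content of 20.9%, and in 70.6% of 5′ UTR reads (69.0 to 72.0) against 20.1%. The share in 3′ UTRs was above that in CDS (Fisher's exact test, adjusted over 3 pairs, p = 2.64e-28), as was the share in CDS above that in 5′ UTRs (Fisher's exact test, adjusted p = 0.00696). With Lars2 the 3′ UTR share was 53.8%. Most reads without Lars2 thus carried the mark of primary piRNAs, which the rule that chose the members did not use. Over all members, Lars2 included, uracil was first in 63.1% of WT and 57.6% of KO reads.

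RNAs with uracil first were reduced more than the others in KO. Without Lars2, 34414 WT and 20999 KO reads had uracil first, and their ratio was 0.601 (0.591 to 0.611). The others numbered 11746 and 9285, with a ratio of 0.779. The quotient of the ratios was 0.772 (0.747 to 0.797, Fisher's exact test on reads, adjusted over 5 comparisons, p = 4.57e-55). In 3′ UTRs the ratios were 0.493 and 0.718, in CDS 0.696 and 0.851, in 5′ UTRs 0.667 and 0.873, and on transcripts without a CDS 0.596 and 0.644. The quotient passed the test in 3′ UTRs, CDS and 5′ UTRs and missed it on transcripts without a CDS (0.924, 0.848 to 1.01, adjusted p = 0.0743, Fisher's exact test). Within the same gene and region the quotient was closer to 1, at 0.903 (0.863 to 0.944).

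The share with uracil first accordingly fell in KO, to 70.7% (69.8 to 71.6) in 3′ UTRs, 68.6% (67.8 to 69.4) in CDS and 64.7% (62.8 to 66.5) in 5′ UTRs. Of the other first bases without Lars2, cytosine was the most frequent, with 5269 WT and 4317 KO reads and a ratio of 0.807 (0.775 to 0.840). RNAs starting with adenine had a ratio of 0.769 (0.733 to 0.806), and those starting with guanine 0.734 (0.691 to 0.780).

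Lengths peaked at 27 nt, which made up 23.5% of the WT and 24.3% of the KO reads. The uracil share was also highest around this length in WT, with 79.5% at 26 nt, 81.0% at 27 nt, 79.5% at 28 nt and 75.9% at 29 nt. It was 48.9% at 24 nt and 35.4% at 33 nt. The KO/WT ratio was 0.785 (0.733 to 0.841) at 24 nt, 0.669 (0.649 to 0.689) at 27 nt and 0.582 (0.557 to 0.607) at 29 nt.

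RNAs of 24–27 nt, the size carried by MILI, had a ratio of 0.677 (0.664 to 0.691), and RNAs of 28–33 nt, which takes in the size carried by MIWI2, had 0.609 (0.596 to 0.623). The quotient of the longer over the shorter was 0.899 (0.874 to 0.926, Fisher's exact test, adjusted over 9 comparisons, p = 4.90e-12). Structural RNA fragments showed the same order on their own, with ratios of 0.975 (0.959 to 0.990) at 24–27 nt and 0.794 (0.782 to 0.806) at 28–33 nt. Divided by the structural fragments of the same lengths, the quotient turned to 1.10 (1.07 to 1.14), so the order of the length classes depended on the total used. For RNAs with uracil first, the longer class was lower in 3′ UTRs (0.459 against 0.523) and not in CDS (0.711 against 0.685, quotient 1.04, 0.985 to 1.09).

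Gene by gene, the ratio was below 1 more often than not. Lars2 was counted among the 149 genes with 50 reads or more, summed over WT and KO. Of these 149 genes, 61 (40.9%) had a KO/WT ratio at or below 0.5. Among all 313 gene-strand units of any gene type with as many reads, members included, the share was 55.6%. At or above 2 there were 0 member genes, against 0% of all units. The median over the 149 genes was 0.563 (quartiles 0.363 and 0.821), and the interval lay entirely below 1 for 89 genes and entirely above 1 for 0. Intervals were not counted for the other units, so these counts have no background share. By comparison, the median over the 164 other units was 0.399. Genes whose reads lay mostly in the 3′ UTR fell at or below 0.5 in 42 of 64 cases, with a median of 0.391. Genes with reads mostly in the CDS did so in 8 of 47 cases, with a median of 0.722, and genes with reads mostly in the 5′ UTR in 2 of 8.

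Eif4ebp2, a repressor of cap-dependent translation, was a rich 3′ UTR source, with 290 of its 359 reads in that region. It had 262 WT and 97 KO reads and a ratio of 0.365 (0.286 to 0.462), and its leading RNA, shown above, was read 19 and 2 times. The reads were spread over 233 distinct RNAs, and uracil was first in 90.0% of them.

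Zbtb37, a zinc finger gene of the BTB family, had 222 WT and 48 KO reads, a ratio of 0.213 (0.153 to 0.292). Its leading RNA made up 19.6% of the gene's reads, with 46 in WT and 7 in KO, and carried both a first uracil and an adenine at the 10th position. The lowest ratios among genes with at least 100 reads were found there and in 4 other genes. They were Gabpb2, a subunit of the transcription factor GABP, with 117 and 25 reads, a ratio of 0.210 (0.131 to 0.326), and Tmem245 with 207 and 49 reads, 0.233 (0.167 to 0.320). Tfcp2l1, a transcription factor of pluripotent cells, had 93 and 23 reads, 0.244 (0.147 to 0.388), and the olfactory receptor gene Olfr784 84 and 22 reads, 0.258 (0.154 to 0.417). All 5 had most of their reads in the 3′ UTR, and none of their intervals reached 0.5. These genes were chosen for their ratio, so their values are a description.

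Olfr784 differed from the other 4 in its RNAs. Uracil was first in 54.7% of its reads against 81.6% to 93.0% in the others, 98.1% of its reads had a match in another gene with up to 2 mismatches, and it had 29 WT and 13 KO antisense reads. Klf13, a Krüppel-like transcription factor, had 158 and 91 reads, most of them in the 3′ UTR, with a ratio of 0.567 (0.433 to 0.739). Trim71, a regulator of mRNAs in embryonic and germ cells and a known let-7 target, had 143 and 83 reads, 144 of them in the 3′ UTR, and a ratio of 0.572 (0.431 to 0.754). Smcr8, a partner of C9orf72 in autophagy, had 134 of its 269 reads in the CDS and the rest in both UTRs, with a ratio of 0.574 (0.443 to 0.739). Cmah, which makes the sialic acid Neu5Gc, had 175 and 78 reads, 0.439 (0.332 to 0.576), and 85.0% of them had a near match in another gene.

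In the CDS, the genes with the most reads included Rnf114, a RING-type ubiquitin ligase, with 214 WT and 154 KO reads and a ratio of 0.709 (0.572 to 0.876). Its leading RNA made up 22.6% of the gene's reads, with 48 in WT and 35 in KO. Eef2, the elongation factor that moves the ribosome along the mRNA, had 154 and 114 reads and a ratio of 0.729 (0.567 to 0.935), and its leading RNA held 30.2% of the reads. A near match in another gene was found for 78.4% of the Eef2 reads, so its values are uncertain. In both genes a single RNA thus held a large part of the reads, in WT and in KO alike.

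Irs2, an adaptor of the insulin receptor, had 127 and 68 reads and a ratio of 0.527 (0.387 to 0.714). Rbm15b, an RNA-binding protein of the m6A methylation complex, had 135 and 72 reads with a ratio of 0.525 (0.389 to 0.704). The leading Rbm15b RNA, 27.5% of the gene's reads, was read 29 and 28 times, so the other RNAs of the gene carried the difference. Ppp1r15b, the regulatory subunit that directs a phosphatase to eIF2α, had 140 and 60 reads and a ratio of 0.422 (0.307 to 0.575).

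Atp5b and Cox4i1 were among the 5 genes with the highest ratios, and since they were chosen for it, their values are a description. Atp5b, the beta subunit of ATP synthase, had 199 reads in all and a ratio of 1.04 (0.777 to 1.38), and Cox4i1, a subunit of cytochrome c oxidase, had 87 and 93 reads, 1.05 (0.778 to 1.43). Uracil was first in 94.5% and 88.9% of these reads, and 46.2% of the Atp5b reads had a near match in another gene. A list of 96 genes picked by symbols starting Rpl or Rps held mostly ribosomal protein genes. It also took in Rps19bp1 and kinase genes such as Rps6ka2, which had at most 6 reads each in either library. The 84 genes of this list with reads summed to 845 and 756 reads, 0.881 (0.798 to 0.973), and uracil was first in 80.7% of WT reads. Rpl4 had 109 and 93 reads, 0.840 (0.630 to 1.12), and Rps3 117 and 82 reads, 0.690 (0.514 to 0.923). For Rpl4, 96.0% of the reads had a near match in another gene and 16.3% overlapped snoRNA genes in its introns, and for Rps3 the near matches came to 64.3%, so their values are uncertain.

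In 5′ UTRs, Arhgef17, a guanine nucleotide exchange factor, had the most reads in that region, 124 of its 187. Its total fell from 119 to 68 reads, a ratio of 0.563 (0.412 to 0.765), and its leading RNA was read 36 and 14 times, 0.383 (0.191 to 0.728). Hmgn1, a nucleosome-binding protein, had 64 reads in the 5′ UTR and 155 in the 3′ UTR, and its total of 112 and 110 reads gave a ratio of 0.967 (0.737 to 1.27). Prelid1, a lipid carrier of the mitochondrial intermembrane space, had 41 and 57 reads, 1.37 (0.901 to 2.10), and 1 RNA held 54.1% of them. The whole-gene ratios of Arhgef17, Hmgn1 and Prelid1, which take in reads outside the 5′ UTR, thus ranged from a clear reduction to no reduction beyond counting error. Cd209c, a C-type lectin gene, had 78 and 36 reads, a ratio of 0.455 (0.297 to 0.683), with 139 and 65 antisense reads. A near match elsewhere was found for 98.2% of its sense reads. Mettl26 had 59 and 32 reads at the start of its transcript, a ratio of 0.534 (0.336 to 0.835), and uracil was first in 3.30% of them. Nuclear tRNAs are not among the transcripts used here, and a match to them was not tested.

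On transcripts without a CDS, Fth1, the ferritin heavy chain gene, had 288 and 188 reads, a ratio of 0.643 (0.532 to 0.775). On its longest transcripts with a CDS, 165 of these reads fell in the 5′ UTR and 309 in the CDS, and 59.0% of its reads had a near match in another gene. Vmn2r97, a vomeronasal receptor gene, had 154 and 70 reads, 0.448 (0.333 to 0.598), with 41 and 18 antisense reads, and nearly every sense read (99.6%) had a near match. Hspa8, the constitutive Hsp70 chaperone, had 66 and 83 reads, 1.24 (0.886 to 1.74), the highest ratio among genes with at least 100 reads. Of its reads, 97.3% overlapped the snoRNA genes Snord14c, Snord14d and Snord14e in its introns, and with Tmem38b at 1.17 (0.997 to 1.36) the 2 highest ratios both belonged to RNAs that overlap annotated small RNA genes.

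Collagen mRNAs gave RNAs of another kind. Col1a1, the main chain of type I collagen, had 114 WT and 100 KO reads, 0.864 (0.654 to 1.14), Col1a2 50 and 52, 1.02 (0.681 to 1.54), and Col3a1 43 and 38, 0.870 (0.548 to 1.38). Uracil was first in 22.0% of Col1a1 and 28.4% of Col1a2 reads. No RNA of Col1a1 held more than 0.935% of the gene's reads. Of the 149 genes with at least 50 reads, 14 had uracil first in fewer than 50% of reads, Lars2, Tmem38b, Mettl26, Hspa8, Cd209c and the 3 collagens among them. The ratios of these 14 ranged from 0.293 to 1.24 with a median of 0.842, and 3 were at or below 0.5. In the 107 genes with 80% or more the median was 0.567, and 45 were at or below 0.5. In the 28 genes between the median was 0.517, and 13 were at or below 0.5. Over all 313 gene-strand units the share at or below 0.5 was 55.6%.

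Fragments of marker mRNAs were few. The 9 mRNAs of the peritubular and interstitial matrix had 266 WT and 249 KO reads, a ratio of 0.922 (0.773 to 1.10), with uracil first in 22.2% of WT reads. The prospermatogonial list had reads for 10 of 12 genes, 70 and 55 in sum, 0.774 (0.534 to 1.12), of which the DNA methyltransferase gene Dnmt3a gave 38 and 20. Without Dnmt3a the sum was 32 and 35 reads, 1.08 (0.648 to 1.80). With uracil first the prospermatogonial reads numbered 63 and 39, a ratio of 0.610 (0.398 to 0.923), which became 0.862 without Dnmt3a, with an interval that included 1. The Sertoli cell list had reads for 6 of 9 genes, 38 and 14 in sum, 0.363 (0.182 to 0.685). Most of these reads came from Amh, with 20 and 8. Without Amh the sum was 18 and 6 reads, 0.328 (0.107 to 0.863). Uracil was first in 23.7% of the WT reads of the Sertoli cell list. Fetal Leydig cell markers had 6 and 5 reads and blood markers 4 and 1. The part that the mix of cells plays in the lower level of the members was not tested.

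The genes of the piRNA pathway were themselves minor sources. Of 17 genes, 15 had reads, and their sums of 57 (WT) and 51 (KO) gave a ratio of 0.881 (0.592 to 1.31). Piwil2, which encodes MILI, had 10 and 7 reads, and Piwil4, which encodes MIWI2, had 3 and 0. Mael had 8 and 12, Mov10l1 5 and 10, Fkbp6, an HSP90 co-chaperone, 6 and 5, and Tdrd9 1 and 1. Tdrd1, Tdrd12, Prmt5 and Wdr77 had at most 4 reads in either library, Pld6, the gene of MITOPLD, had none in both, and Actb had 4 and 6. Differences at these counts were not detectable unless several-fold. The 6 genes of HSP90, HSP70 and their co-chaperones had 117 and 151 reads, 1.27 (0.992 to 1.63), of which Hspa8 gave 66 and 83 and Stip1, an HSP90 co-chaperone, 18 and 27. Of the Hspa8 reads, 97.3% overlapped snoRNA genes, and without Hspa8 the sum was 51 and 68 reads, 1.31 (0.900 to 1.93). Mitochondrially encoded genes, 9 of 13 with reads, had 48 and 35 reads, 0.718 (0.451 to 1.13).

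The features of secondary piRNAs were weak in most members. Without Lars2, the 10th base was adenine in 28.1% (27.7 to 28.5) of the WT and 26.7% (26.2 to 27.2) of the KO reads, where adenine made up 24.4% and 24.3% of the regions. In 3′ UTRs the WT share was 30.5%, against 33.7% for RNAs there without a first uracil, and in CDS it was 26.5%. Uracil just downstream of the 3′ end, a mark of end-to-end cutting of precursors, was found in 25.5% of WT reads (25.1 to 25.9) against a uracil content of 24.5%. The last base was cytosine in 38.6% of WT reads and 38.2% of KO reads, against a cytosine content of 25.3% and 25.5%.

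A small group of members did pair with antisense RNAs. Without Lars2, 814 of 46160 WT reads (1.76%, 1.65 to 1.89) had an antisense 24–33-nt RNA on the same transcript whose 5′ end overlapped theirs by 10 nt, 3.01 times the mean of the other overlaps from 1 to 30 nt. In KO it was 153 of 30284 reads (0.505%, 0.431 to 0.592), 2.61 times the mean of the other overlaps. The most frequent overlap was 10 nt in both libraries. In WT the share was 2.41% in 3′ UTRs, 0.176% in CDS and 4.97% on transcripts without a CDS. Over the mean of the other overlaps it was 3.20, 3.89 and 2.96 times as high in these regions, so the excess was not larger in 3′ UTRs than in CDS. Antisense reads of protein-coding genes, with D10Wsu102e and Noct, numbered 10658 in WT and 4131 in KO. Between WT and KO, the excess over the other overlaps moved less than the share itself.

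Genes with antisense RNAs were reduced more. The 159 genes with at least 10 antisense reads had 2877 WT and 1178 KO sense reads, a ratio of 0.403 (0.377 to 0.432), and their 10th base was adenine in 43.8% of WT reads. The 2643 genes with 1 to 9 antisense reads had 0.604 (0.588 to 0.620), and the 8562 genes with 0 had 0.690 (0.678 to 0.703), with adenine as the 10th base in 26.7%. Uracil was first in 71.0%, 75.4% and 74.5% of the WT reads of these classes. RNAs with a match in another gene at up to 2 mismatches, 6947 of the 46160 WT reads without Lars2, had a ratio of 0.556 (0.534 to 0.578), against 0.662 (0.652 to 0.673) for the rest. Other copies in the genome outside annotated transcripts were not searched, since no genome was used here.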

How the data were processed

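Small RNA was sequenced by the authors on a MiSeq from 1 WT and 1 Hsp90α KO library (TruSeq Small RNA kit), and the adaptor was clipped. The deposited values are raw counts of each distinct sequence, without mapping or normalization. The submitters' notes name the build mm9, and no coordinate of that build was used. Every sequence from 16 nt upward was searched without mismatch, on either strand, in 141767 GENCODE M21 transcripts (GRCm38). Sense RNAs of the 2202 miRNA hairpins formed the miRNA class, and RNAs of rRNA on either strand, with sense RNAs of other structural RNA genes, the structural class.

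The UTRs and CDS were taken from the annotation, with the region set by the 5′ end of each RNA on its longest matched transcript. Near matches with up to 2 mismatches were found with bwa 0.7.19, and the Lars2 and Tmem38b stretches were compared with BLAST 2.17.0. Counts were divided by miRNA reads, as in the study. KO/WT ratios have 95% Clopper-Pearson intervals and shares 95% Wilson intervals. Tests are Fisher's exact tests on reads, two-sided, adjusted by the Benjamini-Hochberg method, and within-gene quotients are Mantel-Haenszel quotients. With 1 library per genotype they compare these libraries, not the genotypes. Library totals were 6409305 (WT) and 5589326 (KO) reads, so that 3 reads are 4.68e-05% and 5.37e-05%.

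Named genes were the 20 with the most reads relative to miRNA reads over both libraries, the 5 with the most reads in each of 5′ UTR, CDS and 3′ UTR, the 5 with the lowest and the 5 with the highest ratio among genes with at least 100 reads, and the genes the study names. A gene among them is not reported here. Col3a1, Stip1, Amh and Dnmt3a were named from the gene lists after their values were seen. The members and lists were chosen with earlier results of these data known. In simulated data 100% of 1000 sense RNAs were placed at their position, and 95.4% of 3000 intervals at a mean of 100 WT reads held the true ratio. With gene-to-gene differences tied to the region and a true quotient of 1 within genes, the Mantel-Haenszel quotient over 3709 genes was 1.01. That of summed reads was 0.688. The size of these differences was chosen and only counting error was drawn, so 0.688 follows from the setting and does not explain the observed quotient. Software was scipy 1.17.1, statsmodels 0.14.6, pandas 2.3.3, numpy 2.4.6 and numba 0.67.0 under Python 3.11.15.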

Additional observations from a re-analysis of the deposited data

How the results depend on the processing

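No paired analysis was possible because each genotype had 1 library. The alternatives changed the normalizing total, the reads counted, the transcript, the specificity and the genes included, and those without Lars2 beyond the planned one, the within-gene quotients and the filters on small RNA genes were chosen after seeing the data. The ratio of all members kept its direction in every alternative run, from 0.643 to 0.779. The quotient of 28–33 nt over 24–27 nt was 0.873 as ruled, and it turned to 1.07 when both classes were divided by structural RNA fragments of the same lengths and to 1.10 without Lars2 as well. The quotient of 3′ UTR over CDS, 0.856 as ruled, no longer kept 1 outside its interval within genes without Lars2, at 0.963 (0.915 to 1.01), and the cause was not tested. The number of genes at or below 0.5 went from 61 of 149 to 254 of 653 with at least 20 reads (38.9%, against 50.2% of all units) and to 22 of 56 with at least 100 reads (39.3%, against 59.0%). It was 48 with either other total, against 43.8% of all units by all reads and 44.4% by structural fragments. At or above 2 there were 9 of 653 genes with at least 20 reads, against 12 of all 1023 units, where there were 0 genes with at least 50. Adenine at the 10th position in KO, 25.5% with Lars2 and close to its content of 25.2%, stood above it when each distinct sequence was counted once (26.3%) and without Lars2 (26.7%). Of the alternatives, 85 left the result on the same side of its reference with the same direction. With 57010 of 64069 RNAs read once, single RNAs carry little weight. Genes under 50 reads were described in sums, apart from the genes the study names, Stip1 and Amh, and the calls at 20 reads or more.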
